A study of Homo sapiens with 6 samples.

Results

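Amino acid transporters are the membrane carriers that move amino acids into, out of and between the compartments of a cell. The genes described here were chosen by name: the families SLC1 (members A1 to A7), SLC7 (A1 to A10, A13 and A14), SLC36, SLC38 and SLC43, with SLC3A1, SLC3A2, SLC6A6 and SLC6A9. The rule found 41 genes of 34644 named in the tables. SLC43A2 was listed at 2 places, so the 41 genes filled 42 of 38648 rows, and counts of rows with the same name were summed.

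The carriers work as a chain. Sodium-coupled transporters such as SNAT1, SNAT2 and the glutamate carriers load amino acids into the cell against their gradient, and exchangers such as ASCT2 and LAT1 trade one amino acid for another, so that glutamine can leave as leucine enters. LAT1 and its relatives are light chains that reach the surface only when bound to a heavy chain, 4F2hc, the product of SLC3A2. Carriers on the lysosome, among them SNAT9, return amino acids to the cytosol and report their level to the kinase complex mTORC1, whose activity in podocytes is known to be raised in diabetic kidney disease.

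The 6 RNA sequencing libraries came from HPC, a line the labels call human podocyte and wild type in genotype. The cells of all 6 libraries were kept in high glucose, so that no library shows the transporters at normal glucose. Of these, 3 received a control lentivirus (NC) and 3 a lentivirus carrying PRDM16, a zinc finger regulator of transcription known for brown fat cell identity, and the titles give 24 h. The comparison of PRDM16 with NC asks what PRDM16 overexpression does to the RNA of these cells. For the virus's promoter and dose, and for the glucose concentration, nothing is stated in the labels used here. Since the labels do not say whether each library was a culture of its own, the spread behind every p-value may be a technical one between samples. In bulk RNA, fewer cells that express a gene and less of its RNA per cell cannot be told apart.

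Total counts ran from 20147135 to 41280350 per library. PRDM16 had 0 counts in each NC library and 11, 18 and 24 in the PRDM16 libraries, 0.599 ± 0.0420 CPM (counts scaled to library size; SD, n = 3), at least 14.5-fold above the floor of 3 counts taken over the NC libraries together. Its adjusted p in edgeR's quasi-likelihood test was 0.000132, but 0.216 in the fit with the replicate block and the length and GC trend removed, and an exact two-sided permutation test over samples gave 0.1, the smallest that 3 against 3 can give. Among 10 podocyte markers, 5 had enough counts to be tested. CD2AP, PODXL and SYNPO were well measured, while the defining markers NPHS1, WT1 and PTPRO had 0 to 4 counts in any library. The epithelial genes PAX8 (164 TPM) and KRT8 (1718 TPM) were high. The proximal tubule genes LRP2 and SLC22A6 were at 0 counts in all 6 libraries, but 4 of the 9 proximal tubule genes listed had enough counts to be tested. The levels below are therefore those of the line labelled HPC, not of differentiated podocytes.

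The 250 bases before the transcription start of 3 transporter genes are printed first. The genes were picked by their values in the comparison, where none of the 3 reached an adjusted p under 0.05 in edgeR. SLC7A5 had one of the highest fold changes, and SLC7A14 had nearly equal means in both groups. SLC38A2 had lower CPM scaled by TMM factors in each PRDM16 library than in any NC library, but overlapping TPM. The sequences are RefSeq's on GRCh38.p14, read 5′ to 3′ on the minus strand, on which all 3 genes lie. Capitals mark the GC box GGGCGG on either strand.
SLC7A5 (chr16:87869508-87869757): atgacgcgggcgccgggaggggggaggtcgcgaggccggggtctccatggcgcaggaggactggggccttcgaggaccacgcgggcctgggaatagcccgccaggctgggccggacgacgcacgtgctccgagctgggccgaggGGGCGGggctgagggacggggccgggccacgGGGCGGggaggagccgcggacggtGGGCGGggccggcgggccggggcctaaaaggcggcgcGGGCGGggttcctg
SLC38A2 (chr12:46372774-46373023): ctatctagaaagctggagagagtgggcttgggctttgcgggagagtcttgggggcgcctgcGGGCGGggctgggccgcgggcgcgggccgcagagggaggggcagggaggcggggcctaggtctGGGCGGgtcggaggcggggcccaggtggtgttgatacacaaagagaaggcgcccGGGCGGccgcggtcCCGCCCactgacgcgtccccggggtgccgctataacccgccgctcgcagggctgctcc
SLC7A14 (chr3:170586076-170586325): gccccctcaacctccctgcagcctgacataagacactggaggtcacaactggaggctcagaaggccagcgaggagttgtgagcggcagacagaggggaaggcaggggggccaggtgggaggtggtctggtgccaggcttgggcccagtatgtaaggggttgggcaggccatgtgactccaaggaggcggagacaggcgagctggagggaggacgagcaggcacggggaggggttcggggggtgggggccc
The SLC7A5 and SLC38A2 windows each held 4 GC boxes and were 79.6% and 73.6% G or C. The SLC7A14 window held none and was 66.8% G or C. SLC7A5 had a higher and SLC38A2 a lower mean in the PRDM16 libraries, but neither difference passed in edgeR (adjusted p = 0.276 and 0.335). The 3 windows do not stand for the other transporter genes. The SLC7A1 window held 6 GC boxes and was 84.4% G or C, with a log2 fold change (PRDM16 over NC) of 0.03. The SLC38A5 window held 1 and was 60.8% G or C, with a log2 fold change of 0.22. A link of GC boxes to these differences was not tested.

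RefSeq promoters were found for 32 of the 41 transporter genes, 54 windows in all, some genes having several. GGGCGG was in 30 of the 54 windows (55.6%), against 42.6% of all 35116 promoters of that length. CCAAT, searched on both strands as all motifs were, was in 15 (27.8%, against 32.0%), and TATAAA in 3 (5.56%, against 10.7%). TGATGNAAN is the composite element bound by ATF4, a transcription factor of the amino acid starvation response. It was in 2 windows (3.70%, against 3.13%), 1 of SLC1A5 and 1 of SLC1A3. The SLC1A5 window with it lay inside the gene, and other windows of both genes lacked it. TATAAA was in 1 window each of SLC38A1, SLC38A4 and SLC38A9, and other windows of SLC38A1 and SLC38A9 lacked it. Windows of one gene can overlap, so these shares describe letters and not independent promoters, and the median GC content was 61.2% in the transporter windows and 58.0% in all.

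The repertoire was uneven. Levels between genes are compared on the deposited TPM scale (which divides by gene length and library size). Over the 6 libraries 8 of the 41 genes averaged at least 100 TPM, 10 from 10 to under 100, 7 from 1 to under 10, and 16 under 1. The transporter genes together summed to 3861 ± 309 TPM (SD, n = 6), of which the 5 highest held 77.2% ± 2.3 and the 8 highest 90.7% ± 1.1.

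**Figure D1:**
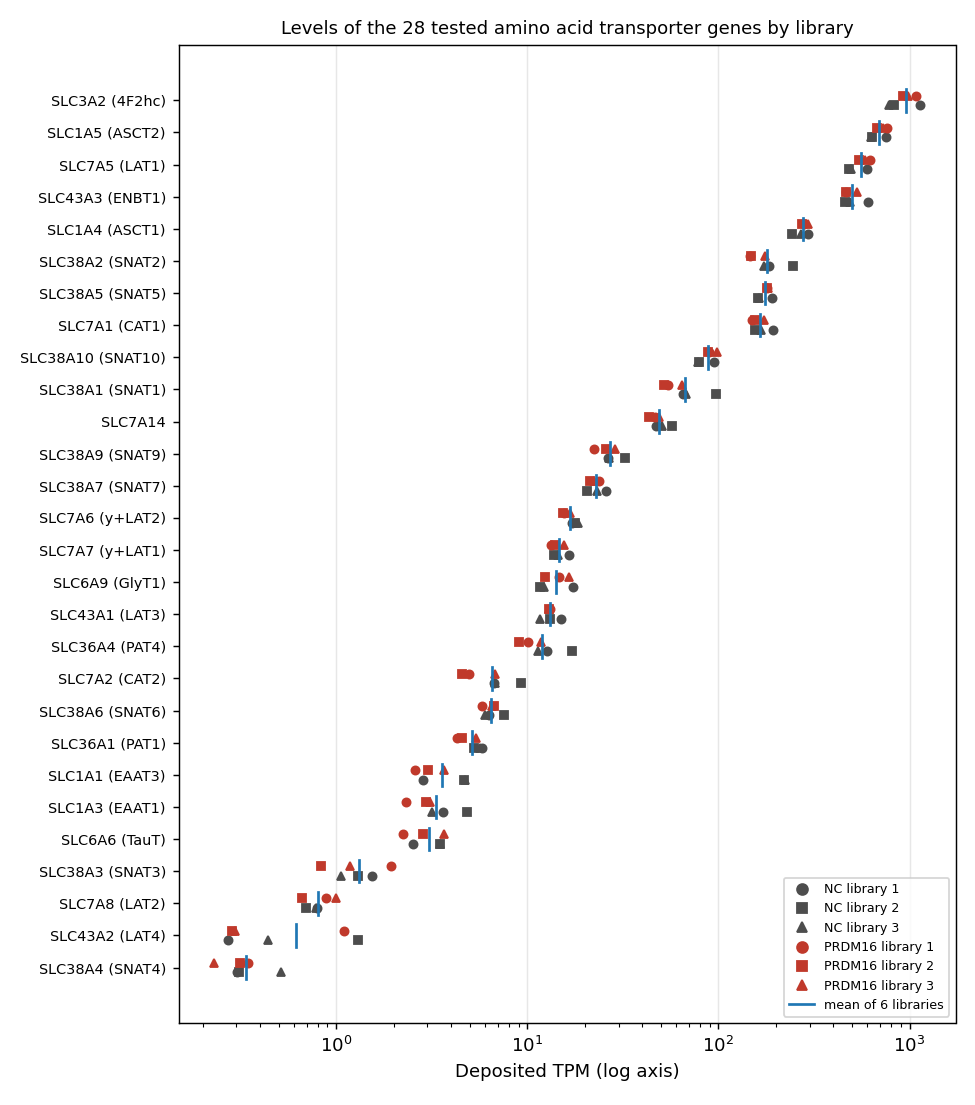
Deposited TPM (log axis) of the 28 transporter genes with enough counts to be tested, 1 row per gene, in 3 NC libraries (grey) and 3 PRDM16 libraries (red); circle, square and triangle are libraries 1, 2 and 3, and the blue bar is the mean of 6. Mean levels run from 0.336 TPM for SLC38A4 to 956 TPM for SLC3A2. The 2 groups lie close together at each gene compared with this full range. Many neighbouring genes overlap, and SLC43A2 spreads widely, from 0.271 to 1.299 TPM.

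SLC3A2, the heavy chain 4F2hc (chr11:62856109-62888860, hg38, as for all gene coordinates here), was the highest at 956 ± 138 TPM, above 99.1% of tested genes. Its library values were 1137, 828 and 783 TPM with NC and 1078, 923 and 984 TPM with PRDM16. NC library 1 was the highest and the other 2 NC libraries the lowest. The other heavy chain, SLC3A1 (rBAT), which serves cystine uptake in the proximal tubule, had 0 to 3 counts per library, and 3328 of its 5066 exon bases are shared with PREPL.

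Among the light chains, 1 dominated. SLC7A5 (LAT1, the leucine and glutamine exchanger, chr16:87830022-87869507) had 602, 484 and 491 TPM with NC and 618, 546 and 585 TPM with PRDM16, 555 ± 57 over all 6. Of the summed TPM of SLC7A5, SLC7A6, SLC7A7, SLC7A8 and SLC7A10, all partners of 4F2hc, SLC7A5 held 94.5% ± 0.7 (n = 6). With SLC7A11, a further partner that the name rule leaves out (19.4 TPM), its share was 91.4% ± 1.6. SLC7A6 (y+LAT2) and SLC7A7 (y+LAT1), which exchange arginine and lysine for neutral amino acids, averaged 16.8 and 14.6 TPM, and SLC7A8 (LAT2) 0.802 TPM. SLC7A10 (asc-1, small neutral amino acids) and SLC7A9, the partner of rBAT, had at most 6 counts in any library, and SLC7A13 had 0 in all. The TPM of these 6 light chains per SLC3A2 TPM was 0.643 ± 0.059 with NC and 0.634 ± 0.016 with PRDM16 (SD, n = 3). Heavy chain RNA exceeded their sum in every library.

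The neutral amino acid exchangers ASCT2 and ASCT1 followed. SLC1A5 (ASCT2, the main sodium-dependent glutamine exchanger of growing cells, chr19:46774883-46788594) averaged 696 ± 58 TPM. SLC1A4 (ASCT1, which carries serine, alanine and threonine, chr2:64988479-65023865) averaged 277 ± 19 TPM. SLC1A5 was 2.31 to 2.69 times SLC1A4 in the 6 libraries. Their relatives that carry glutamate were low: SLC1A1 (EAAT3) averaged 3.59 TPM and SLC1A3 (EAAT1) 3.34 TPM, while SLC1A2, SLC1A6 and SLC1A7 had at most 12 counts per library.

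Of the cationic carriers, which bring in arginine, lysine and ornithine, SLC7A1 (CAT1, chr13:29509410-29595688) averaged 166 ± 16 TPM. SLC7A14 (chr3:170459548-170586075), a lysosomal member of this group best known from the retina, averaged 49.0 ± 4.7 TPM and lay above 77.8% of tested genes. SLC7A2 (CAT2) averaged 6.50 TPM, and SLC7A3 and SLC7A4 had 0 or 1 count in each library. SLC7A14 rests on 3670 to 7388 counts per library, and 93 of its 10140 exon bases are shared with an antisense gene that had 7 to 30 counts.

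The SLC38 family gave 8 genes above 1 TPM. SLC38A2 (SNAT2, which is induced when amino acids run short, chr12:46358188-46372774) averaged 179 ± 36 TPM, and its neighbour on the chromosome, SLC38A1 (SNAT1, chr12:46183063-46269149), 66.9 ± 16 TPM. SLC38A2 was 2.53 to 2.83 times SLC38A1 in the 6 libraries. The third gene of that cluster, SLC38A4 (chr12:46764761-46832422), averaged 0.336 TPM. SLC38A5 (SNAT5, which moves glutamine in either direction, chrX:48458544-48470260) averaged 176 ± 11 TPM, close to SLC38A2.

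SLC38A10 (chr17:81244811-81295433), a less studied member of the family, averaged 87.9 ± 8.1 TPM. The lysosomal members SLC38A9 (SNAT9, the arginine sensor of mTORC1, chr5:55625845-55712343) and SLC38A7 (SNAT7, which exports glutamine and asparagine) averaged 27.1 ± 3.3 and 22.8 ± 1.9 TPM. SLC38A6 averaged 6.49 TPM and SLC38A3 (SNAT3) 1.31 TPM. SLC38A8 and SLC38A11 had at most 9 counts per library.

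SLC43A3 (chr11:57406954-57427580) averaged 502 ± 57 TPM, the fourth highest; although it bears the family name, its product ENBT1 is a carrier of nucleobases. SLC43A1 (LAT3, a leucine carrier described in podocytes, chr11:57484531-57516561) lies beside it and averaged 13.2 TPM. Among the proton-coupled SLC36 carriers, SLC36A4 (PAT4) averaged 11.99 TPM and SLC36A1 (PAT1, on lysosomes) 5.15 TPM. The adjacent SLC36A2 had 3 to 7 counts per library and SLC36A3 0 in all, on the same stretch of chromosome 5. SLC6A9 (GlyT1, glycine) averaged 14.1 TPM and SLC6A6 (TauT, taurine) 3.05 TPM, but 4245 of the 7339 exon bases of SLC6A6 are shared with GRIP2 (4 to 17 counts).

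The order of the levels held in each library for some neighbours and not for others. SLC3A2 was above SLC1A5, and SLC1A5 above SLC7A5, in 6 of 6 libraries. SLC7A5 was above SLC43A3 in 5, SLC1A4 above SLC38A2 in 5, SLC38A2 above SLC38A5 in only 2 and SLC38A5 above SLC7A1 in 4, so SLC38A2, SLC38A5 and SLC7A1 share one level within their spread. SLC7A1 was above SLC38A10 in 6, SLC38A10 above SLC38A1 in 5, and SLC38A1 above SLC7A14 and SLC7A14 above SLC38A9 in 6. The exception in the SLC38A10 and SLC38A1 pair was NC library 2.

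A count filter left 28 of the 41 genes to test. Of the 13 that were not tested, 8 had at most 3 counts in every library, and SLC7A13 and SLC36A3 had 0 in all 6. A count of 0 in 161243069 counts allows up to 0.0186 CPM over the libraries together, and 0.0727 to 0.149 CPM in a single library. These limits cover counting error only.

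PRDM16 against NC gave no transporter that passed. At an adjusted p under 0.05, edgeR called 0 of the 28 (smallest adjusted p 0.265), and so did DESeq2 and limma-voom, against 18 of 15053 tested genes in all in edgeR (0.12%). At an unadjusted p under 0.05, 4 of the 28 (14.3%) were reached in edgeR, 5 (17.9%) in DESeq2 and 3 (10.7%) in limma-voom. Over all tested genes the shares were 16.9% in edgeR, 15.1% in DESeq2 and 14.3% in limma-voom. By direction, SLC7A5 and SLC38A10 had higher and SLC7A2 and SLC38A1 lower means with PRDM16, where 9.8% of all tested genes reached that p with a higher and 7.08% with a lower mean. The transporters' share was thus near that of all genes.

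In CPM scaled by TMM factors, the libraries of the groups did not overlap for 3 of the 28 (10.7%), against 21.1% of all tested genes. SLC38A10 and SLC1A4 lay above (12.4% of all) and SLC38A2 below (8.7% of all). On the deposited TPM scale the groups overlapped for each of the 3. SLC38A10 had 95.3 TPM in NC library 1 and 87.9 in PRDM16 library 2, and SLC1A4 had 294.9 and 273.5. SLC38A2 had 173.9 TPM in NC library 3 and 175.4 in PRDM16 library 3. Log2 fold changes (PRDM16 over NC) were positive for 16 of the 28 (57.1%), against 47.3% of all. Their median was 0.04, against -0.02 over all, and they ran from -0.34 (SLC7A2) to 0.30 (SLC7A8). The sizes were small: the median size was 0.21, and 0.18 over all tested genes. The per-library values that follow are CPM scaled by TMM factors, for comparison within a gene only. Means of TPM can differ from them in sign for genes near 0, as for SLC7A1.

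**Figure D2:**
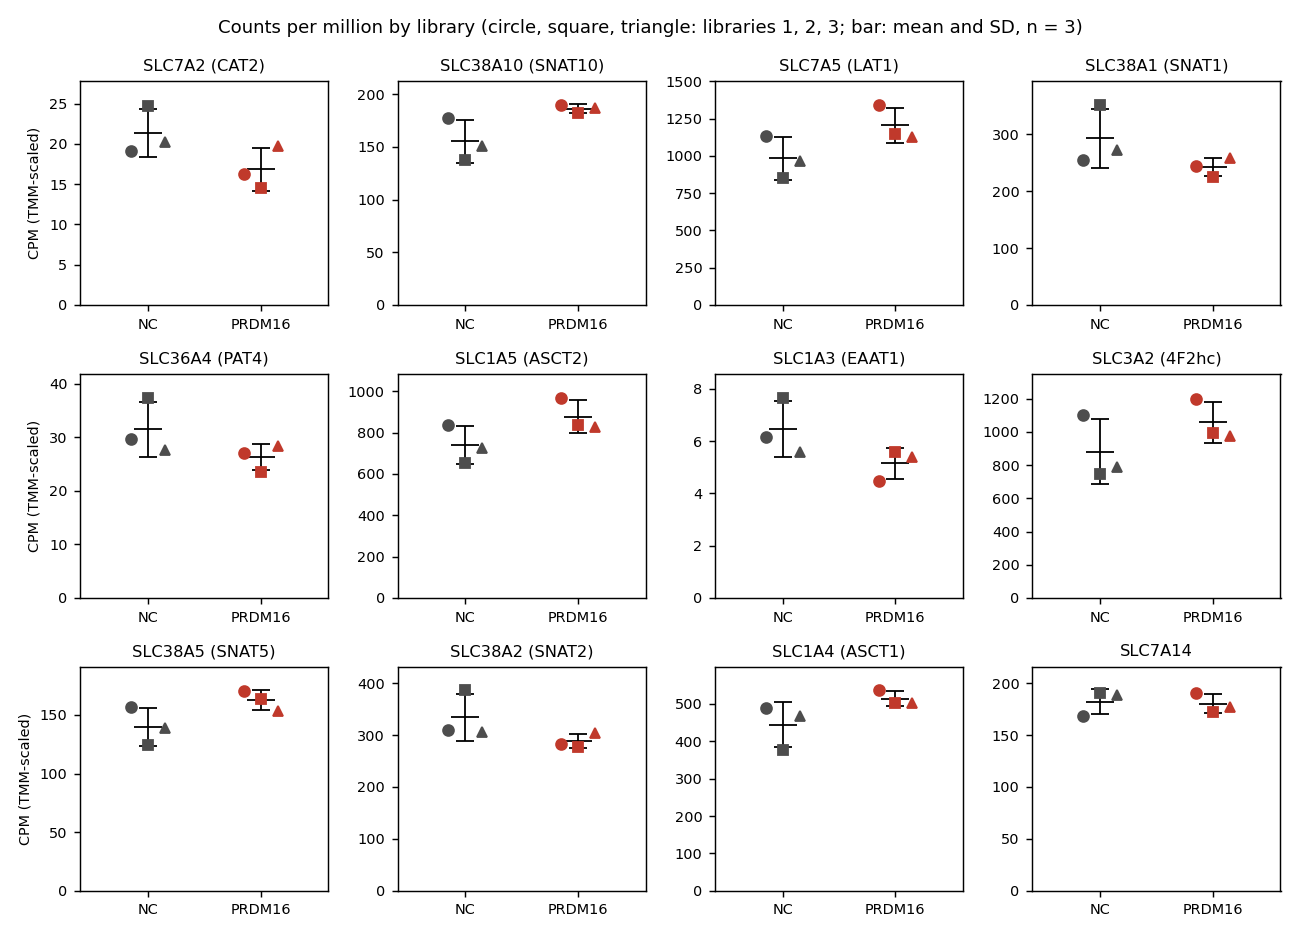
TMM-scaled CPM by library for the 11 transporter genes with the smallest p and SLC7A14; circle, square and triangle are libraries 1, 2 and 3 of NC (grey) and PRDM16 (red), and the bar is the mean and SD (n = 3). All 3 PRDM16 libraries lie outside the NC range at SLC38A10, SLC1A4 and SLC38A2, and the groups overlap in the other panels. At SLC38A2 NC library 2 (grey square) has 386 CPM, the highest of the 6.

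The 4F2hc pair came first by level. SLC7A5 had 1137, 852 and 965 CPM with NC and 1341, 1147 and 1130.0 CPM with PRDM16. The highest NC library lay just above the lowest PRDM16 library, and NC library 2 was the lowest of all 6. Its log2 fold change was 0.29 ± 0.13 (SE, n = 3 per group; edgeR adjusted p = 0.276). SLC3A2 had 1104, 749 and 789.9 CPM with NC and 1201, 996 and 977 CPM with PRDM16, a log2 fold change of 0.27 ± 0.14 (adjusted p = 0.318 in edgeR), and NC library 1 exceeded 2 of the PRDM16 libraries. The heavy chain and its main light chain thus had similar differences, neither of which passed.

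Of the exchangers, SLC1A5 had 836, 655 and 726 CPM with NC and 969, 837 and 825 CPM with PRDM16. NC library 1 lay within the PRDM16 range, and the log2 fold change was 0.25 ± 0.13 (edgeR adjusted p = 0.31). SLC1A4 had 488, 375 and 467 CPM with NC and 536, 503 and 501 CPM with PRDM16. All 3 PRDM16 libraries were above all 3 NC libraries by a narrow margin, with a log2 fold change of 0.21 ± 0.13 (edgeR adjusted p = 0.35).

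The SLC38 genes differed in sign. SLC38A10 had 177, 137 and 151 CPM with NC and 190.2, 182 and 187 CPM with PRDM16, so the groups did not overlap (log2 fold change 0.26 ± 0.12, edgeR adjusted p = 0.275). SLC38A5 had 157, 124 and 139 CPM with NC and 171, 164 and 154 CPM with PRDM16 (0.22 ± 0.12, adjusted p = 0.322). NC library 1 was above 1 PRDM16 library. SLC38A2 had 310.2, 386 and 305 CPM with NC and 283, 277 and 303 CPM with PRDM16. Its groups did not overlap, but the closest libraries, NC library 3 and PRDM16 library 3, differed by little, and the log2 fold change was -0.22 ± 0.12 (edgeR adjusted p = 0.335).

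SLC38A1, next to SLC38A2, had 254, 351 and 273 CPM with NC and 244, 226 and 258 CPM with PRDM16. NC library 1 fell within the PRDM16 range, and NC library 2 was far above the rest. The log2 fold change was -0.27 ± 0.13 (edgeR adjusted p = 0.279). SLC38A9 had 32.9, 37.5 and 34.8 CPM with NC and 31.9, 35.7 and 36.5 CPM with PRDM16, with the groups interleaved.

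Of the 3 cationic carriers tested, none passed. SLC7A2 had 19.1, 24.7 and 20.2 CPM with NC and 16.2, 14.6 and 19.8 CPM with PRDM16, and PRDM16 library 3 lay inside the NC range. Its log2 fold change, -0.34 ± 0.14, had the smallest p among the 28 (edgeR adjusted p = 0.265). SLC7A1 had 507, 381 and 459.5 CPM with NC and 452, 455 and 468 CPM with PRDM16, and SLC7A14 had 168, 191 and 188 CPM with NC and 191, 173 and 178 CPM with PRDM16. In both genes the PRDM16 libraries lay inside or level with the NC range, with log2 fold changes of 0.03 ± 0.13 and -0.02 ± 0.12.

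Among the rest, SLC36A4 had 29.7, 37.4 and 27.6 CPM with NC and 27.0, 23.5 and 28.4 CPM with PRDM16 (log2 fold change -0.26 ± 0.13, edgeR adjusted p = 0.299). SLC1A3 had 6.15, 7.63 and 5.56 CPM with NC and 4.47, 5.57 and 5.38 CPM with PRDM16 (-0.33 ± 0.17, adjusted p = 0.314). In each, 1 PRDM16 library lay above 1 NC library. SLC43A3 had 618, 439 and 520.1 CPM with NC and 548, 527 and 556 CPM with PRDM16, with all 3 PRDM16 libraries inside the NC range. The other 13 tested genes had adjusted p of 0.414 or more in edgeR.

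SLC43A2 (LAT4) was the least certain of the tested genes. It had 18, 101 and 27 counts with NC and 69, 25 and 36 with PRDM16, with a log2 fold change of -0.20 ± 0.92, and 0.68 without NC library 2. Nearly all its counts stood at the second listing, on the scaffold NT_187611.1: 15, 94, 27, 67, 24 and 33 in the same order. The chromosome 17 listing had 0 to 7. PRPF8, whose listing on that scaffold held 337 to 4747 counts and whose chromosome 17 listing held 2 to 11, was split the same way, while WDR81 had more counts on chromosome 17 (485 to 1010) than on the scaffold (188 to 504).

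**Figure D3:**
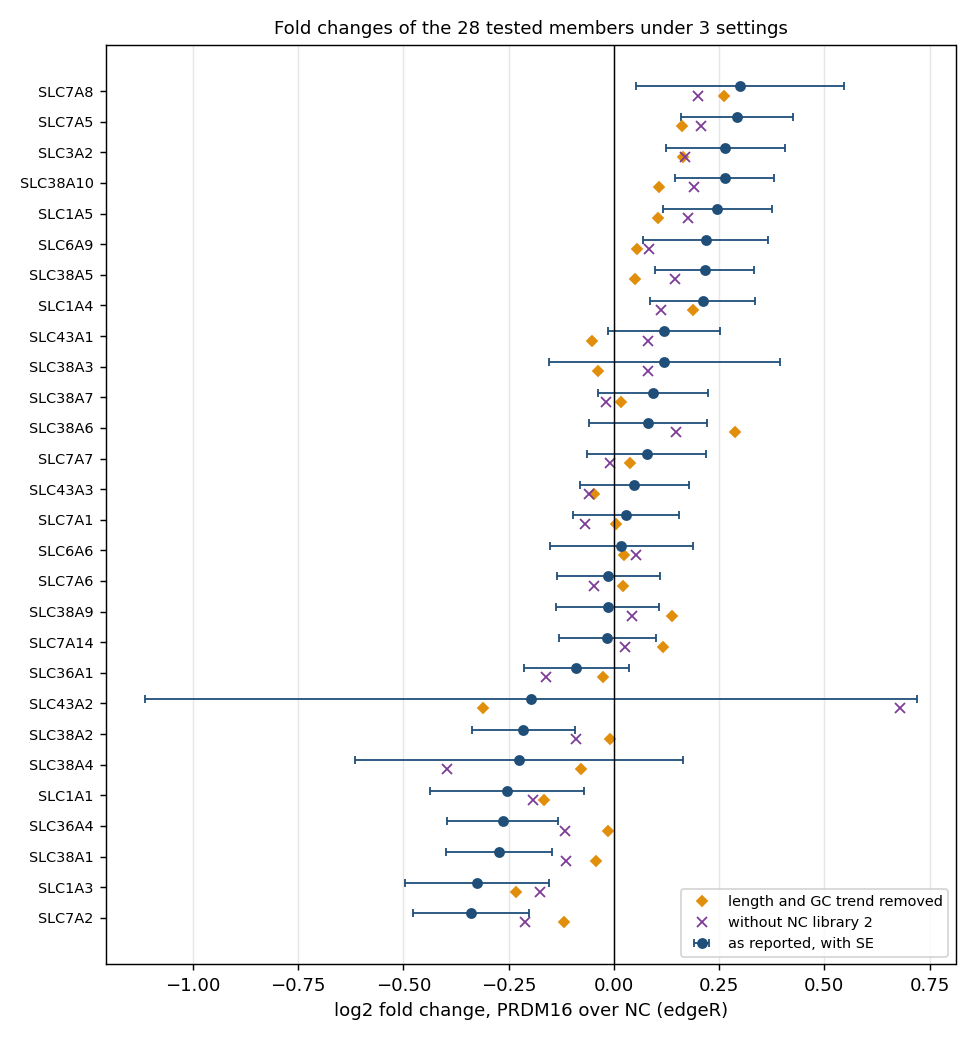
Log2 fold change, PRDM16 over NC, of the 28 tested transporter genes: blue circles with SE are the reported values, orange diamonds the values with the trend against gene length and GC content removed, and purple crosses the values without NC library 2. Most diamonds and crosses lie nearer to 0 than the circles: the median size is 0.21 as reported, 0.11 without NC library 2 and 0.07 with the trend removed.

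NC library 2 and the GC content of transcripts moved with these differences. In NC library 2 the deviation of tested genes from the mean of the 6 libraries had a Spearman correlation of -0.72 with GC content across genes. NC libraries 1 and 3 had 0.16 and -0.23, and PRDM16 libraries 1, 2 and 3 had 0.51, 0.475 and 0.30. Each PRDM16 library thus lay above each NC library, so the GC trend and the group cannot be told apart here. NC library 2 was the highest NC library for 8 of the 12 transporter genes with negative log2 fold changes and the lowest for 12 of the 16 with positive ones. That library is part of the NC mean that sets these signs, so an excess in this direction is built in. No share over all tested genes stands beside these counts. Across the 28 genes the Spearman correlation of log2 fold change with GC content was 0.71, and across 13575 tested genes with a GC value it was 0.65. Against length the values were -0.47 and -0.40. Genes share libraries and base composition, so these are descriptions with no test.

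**Figure D4:**
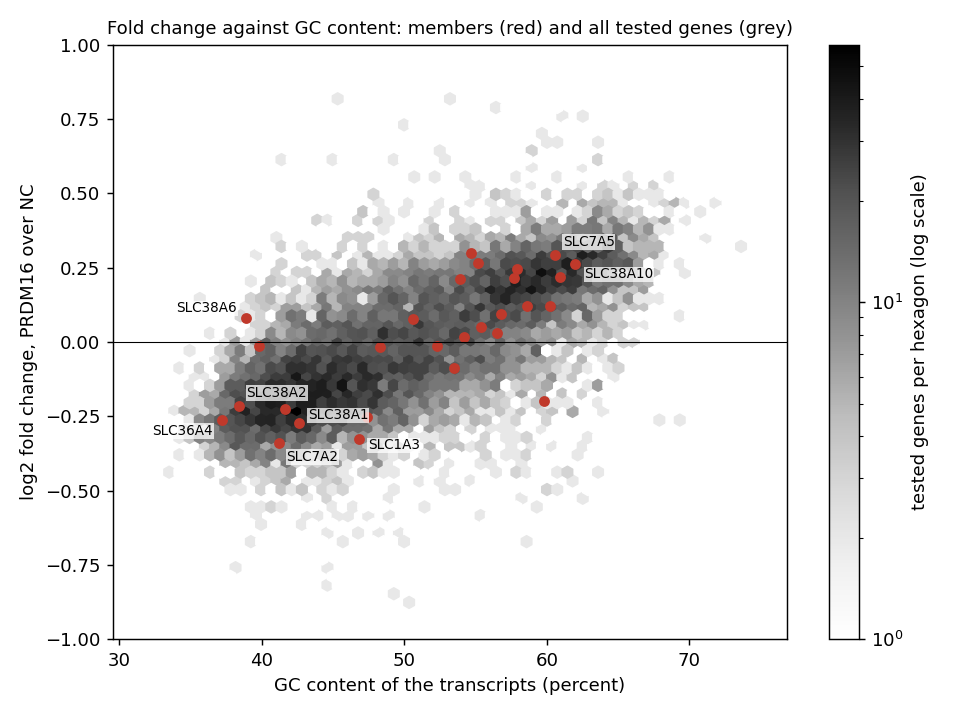
Log2 fold change, PRDM16 over NC, against the GC content of each gene's transcripts, for the 28 tested transporter genes (red) and all 13575 tested genes with a GC value (grey hexagons, darker where more genes lie on a log scale); 109 genes beyond 1 on either side are not drawn. The red points follow the grey band, with SLC7A5 (60.6% GC) and SLC38A10 (62.0%) above 0 and SLC7A2 (41.2%), SLC38A1 (42.6%), SLC38A2 (38.4%) and SLC36A4 (37.2%) below.

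Without NC library 2, none of the 28 reached an unadjusted p under 0.05, and 7.55% of all tested genes did. The log2 fold change of SLC7A5 was then 0.21, of SLC38A10 0.19, of SLC7A2 -0.21, of SLC38A1 -0.11 and of SLC38A2 -0.09. With the length and GC trend removed, the values were 0.16, 0.11, -0.12, -0.04 and -0.01. In that fit 2 transporter genes reached an unadjusted p under 0.05, SLC1A4 (0.19) and SLC38A6 (0.29), neither of which was among the 4 above. That is 7.14% of the 28, against 6.57% of all genes in that fit, a share near the background. SLC38A6, at 38.9% GC, had 11.4, 12.7 and 11.3 CPM with NC and 11.96, 13.5 and 12.01 CPM with PRDM16. The part of NC library 2 and of GC content in the reported differences was not tested further.

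Among 37 tested genes of amino acid sensing by mTORC1, 0 passed in edgeR, 5 had a higher and 1 a lower mean at an unadjusted p under 0.05 (16.2%, against 16.9% of all tested genes), and the median log2 fold change was 0.09. The smallest p were those of MLST8, a subunit of mTORC1 (0.38 ± 0.13, edgeR adjusted p = 0.228), and of 3 subunits of the Ragulator complex that anchors it to the lysosome, LAMTOR4 (0.34), LAMTOR2 (0.31) and LAMTOR1 (0.27). The other Ragulator subunits had -0.13 (LAMTOR3) and 0.11 (LAMTOR5). LAMTOR1 had 193, 171 and 184 CPM with NC and 242, 216 and 203 CPM with PRDM16, with no overlap. The same held for 8 of the 37 tested (21.6%), near the 21.1% of all tested genes. With the length and GC trend removed, the log2 fold changes were 0.17 for MLST8 and 0.06 for each of LAMTOR4, LAMTOR2 and LAMTOR1.

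In the ATF4 amino acid response, 29 genes were tested, 0 passed in edgeR, and 5 had a higher and 0 a lower mean at an unadjusted p under 0.05 (17.2%, against 9.8% higher and 7.08% lower among all tested genes), with a median of 0.12. ATF4 itself, the transcription factor, had 561 ± 73 CPM with NC and 585 ± 11 with PRDM16. EIF4EBP1, the translation repressor that mTORC1 inactivates, had 214, 162 and 186 CPM with NC and 275, 239 and 229 CPM with PRDM16, without overlap (0.41 ± 0.12, edgeR adjusted p = 0.192, and 0.09 with the trend removed). Groups did not overlap for 4 of the 29 tested (13.8%, against 21.1% of all tested genes). CHAC1, which degrades glutathione, had 0.35 ± 0.13, CEBPB, a transcription factor, 0.35 ± 0.15, and PHGDH, the first enzyme of serine synthesis, 0.26 ± 0.13. With the trend removed these were 0.22, 0.03 and 0.24.

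Of the enzymes of glutamine, branched chain amino acids and arginine, 25 were tested and 0 passed in edgeR, with 5 higher and 2 lower at an unadjusted p under 0.05 (28%, against 16.9% of all tested genes) and a median of 0.14. BCKDHA, a subunit of the branched chain keto acid dehydrogenase, had a log2 fold change of 0.32 ± 0.12 and its kinase BCKDK 0.30 ± 0.12, while PPM1K, the phosphatase that opposes the kinase, had -0.33 ± 0.13. Each of these 3 had groups that did not overlap and an adjusted p of 0.251 or more in edgeR, and with the trend removed the values were 0.07, 0.05 and -0.15. Groups did not overlap for 8 of the 25 tested (32%), against 21.1% of all tested genes.

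Among other amino acid and peptide transporters, 10 of 24 were tested, 0 passed in edgeR, and 1 had a higher mean at an unadjusted p under 0.05 (10%, against 16.9% of all tested genes): SLC66A1, the lysosomal exporter of cationic amino acids (0.32 ± 0.13, adjusted p = 0.265). SLC7A11, the cystine and glutamate exchanger that also binds 4F2hc, had 71.9, 95.5 and 60.4 CPM with NC and 67.6, 50.03 and 65.9 CPM with PRDM16 (-0.31 ± 0.16, and -0.04 with the trend removed). SLC15A3 and CTNS, lysosomal carriers of peptides and of cystine, had 0.23 and 0.21 (0.04 and 0.15 with the trend removed). Among the mitochondrial carriers, 9 of 10 were tested, 0 passed and 0 reached an unadjusted p under 0.05 in edgeR. Their smallest p were those of SLC25A38 (0.23), SLC25A29 (0.20), SLC25A22 (0.21) and SLC25A47 (0.50, at 0.288 to 0.728 CPM).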

How the data were processed

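The 6 poly(A) RNA libraries are described above, and groups came from the sample titles. For each library the authors deposited raw read counts, TPM and FPKM per gene, per the file headers, on hg38, per the submitters' processing notes. Aligner, counter, strandedness and annotation release: not given in the sources used here. Each table had 7 genes split over several lines, which were rejoined. Counts were summed by gene name. TPM was used for levels, and FPKM only to check the totals.

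PRDM16 was compared with NC in edgeR 4.0.16 (R 4.3.3; TMM, filterByExpr with a minimum count of 10 and a total of 15, robust glmQLFit, glmQLFTest) over all genes, with Benjamini-Hochberg adjustment over the 15053 tested. The script was checked on simulated data. Alternatives were DESeq2 1.42.0, limma-voom 3.58.1, other scaling and filters, a replicate block, a fit with offsets for length and GC content (natural splines, 5 df), and each library left out. GC content came from the reference transcripts.

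Library values were printed for the 12 genes highest in TPM and the 8 with the smallest p. Per pathway list, up to 4 of the genes with the smallest p were named. Among these, library values were printed for LAMTOR1, EIF4EBP1 and SLC7A11 only. Library values of SLC38A6, SLC43A2 and SESN2 and the group means of ATF4 were added after they were seen. A few list genes are not reported here. The transporter genes and lists were chosen with earlier results of these data known.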

Additional observations from a re-analysis of the deposited data

How the results depend on the processing

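No transporter passed an adjusted p under 0.05 in any of the 15 alternatives, while the number of all tested genes called ran from 4 (limma-voom) to 148 (without NC library 3). The median log2 fold change kept its sign, between 0.02 and 0.08. The 4 genes at an unadjusted p under 0.05 became 7 of 39 tested with no count filter (SLC1A5, SLC3A2 and SLC36A4 were added), 2 with the length and GC trend removed and 2 with that trend and the replicate block; leaving out 1 library each gave 0 to 12, with 0 without NC library 2 or PRDM16 library 1, 1 without PRDM16 library 2 and 12 without NC library 1. The shares of all tested genes moved too: 16.9% as reported, 13.8% with no count filter, 6.57% with the trend removed, 5.78% with the trend and the block, 7.55% without NC library 2, 7.67% and 8.97% without PRDM16 library 1 or 2, and 27.5% without NC library 1 (42.9% of the transporter genes). The 3 genes whose groups did not overlap became 5 with no count filter and 3 to 14 without 1 library each, with 14 without NC library 1, 9 without PRDM16 library 3, 6 without NC library 3 and 5 without NC library 2 or PRDM16 library 2. Fewer libraries overlap less often by construction. The share of all tested genes without overlap is given here only for the reported fit (21.1%). The counts without overlap in the other fits therefore cannot be compared with all tested genes, and nothing is read from them. The cause of the other shifts was not tested.

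The replicate numbers in the titles only share a number: deviations of same-numbered libraries correlated at 0.14, -0.14 and -0.20. With the number as a replicate block, 3 transporter genes (10.7%) reached an unadjusted p under 0.05 in edgeR, and SLC38A1 was lost. The share of all tested genes was 13.8%. At an adjusted p under 0.05, 0 transporter genes passed and 22 of all tested genes were called. The log2 fold change turned sign in 1 to 5 alternatives for 12 of the 28 transporter genes (SLC43A2 among them, 0.68 without NC library 2), all with a reported size of 0.23 or less and none of them called.

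With 3 libraries per group, standard errors of tested transporter genes ran from 0.12 to 0.92 on the log2 scale, and the fold changes themselves were no larger than 0.34 in size. Without a stated strand setting, genes that share exon bases (SLC6A6 with GRIP2, SLC7A6 with SLC7A6OS, SLC3A1 with PREPL) cannot be told apart in those bases.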

Other observations

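GLUL, glutamine synthetase, had 1 to 6 counts per library, 0.0349 TPM on average, and too few to be tested, while SLC1A5, the glutamine exchanger, averaged 696 TPM. This pair was chosen after its values were seen.

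ASNS, asparagine synthetase, had 62 to 186 counts per library, while CZ1P-ASNS, a gene that shares 2247 of its 3233 exon bases, had 320 to 761. The level of ASNS in the ATF4 list is therefore uncertain. SESN2, a leucine sensor on that list and on the mTORC1 list, had 26.1, 15.7 and 15.1 CPM with NC and 94.6, 21.7 and 24.9 CPM with PRDM16. A single library, PRDM16 library 1, carried its log2 fold change of 1.30 ± 0.75 (edgeR adjusted p = 0.413).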
